A study of Mus musculus with 18 samples.

Results

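The genes described here encode matricellular and fibrillar glycoproteins, secreted proteins that lie in the extracellular matrix around 3T3-L1 cells, mouse preadipocytes in culture that hormones turn into fat cells. The members were 10 genes chosen by symbol: 3 thrombospondins (Thbs1, Thbs2 and Thbs3), tenascin C (Tnc), periostin (Postn), Sparc, osteopontin (Spp1), fibronectin (Fn1), fibrillin-1 (Fbn1) and elastin (Eln). Of these, 8 of 10 had a row in the annotation of the arrays that named exactly 1 gene, with 1 such row each, among 22180 genes and 23521 rows in all. Spp1 and Fbn1 were not analysed here. The list was drawn up with earlier results of these data known. Shares of all rows set beside its counts below are therefore a description and not a test. The arrays were Mouse Gene 2.0 ST arrays (Affymetrix), with 3 arrays in each of 6 groups. The groups were SIRT6 KD and WT cells before induction (0 hr), and SIRT6 KD and WT cells 20 hr and 40 hr after it. According to the study's methods, knockdown was by a short hairpin RNA against SIRT6, a deacetylase of the sirtuin family. Induction by IBMX, dexamethasone and insulin in medium with fetal bovine serum followed confluence in both genotypes. Before it, by the same methods, the cells were kept in bovine serum. No group was kept without induction to 20 hr or 40 hr. The hormones, the change of serum and the time in culture therefore cannot be told apart. The labels give T0, T20 and T40 without a unit and describe mice and an inhibitor, so the hours, the cell line and the hairpin are taken from the study's text. Whether the WT cells of the arrays carried a control hairpin was not stated. The study's methods state in general that its culture experiments had biological replicates, but no label says that the 3 arrays of a group came from separate cultures. If they did not, the p-values measure only technical spread.

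As background, matricellular proteins bind to structural fibres, to growth factors and to cell surface receptors, and they set how firmly cells hold to the matrix rather than bearing load themselves. Fibronectin, fibrillin and elastin are the fibrils they act on. During adipogenesis the fibrillar matrix of the spread preadipocyte is remodelled while the cell rounds up, and thrombospondin 1 is known in other settings for releasing active TGF-beta from its latent form, a signal that holds back adipocyte differentiation.

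Levels are log2 signals of the deposited values, normalised across the arrays. Changes are read within each gene, because the signals of different probes cannot be set closely against each other. Where rows are ranked, added up or set beside a background level, this is a rough guide only. A mean above that level does not by itself show expression. As a mark of background, 95% of 1400 rows for olfactory and vomeronasal receptors, which these cells are not known to use, had a mean signal below 6.55, and 53.4% of all rows lay above that level. Of the members, 7 of 8 lay above it. In the RefSeq genes of GRCm38.p6 the thrombospondins lie apart from each other, Thbs1 at chr2:118111876-118127133, Thbs2 at chr17:14665500-14694262 and Thbs3 at chr3:89215180-89226841. Tnc lies at chr4:63959785-64047015, Postn at chr3:54359267-54391041, Sparc at chr11:55394159-55420080, Fn1 at chr1:71585473-71653280 and Eln at chr5:134702595-134747368. Eln, with a mean of 6.46, lay below the receptor level, so its values are close to background.

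Sirt6 itself differed little between the genotypes on the arrays. It read 6.96 to 7.21 in SIRT6 KD cells, with 7.15 to 7.41 in WT cells, at 0 hr, then 6.73 to 6.98 with 6.96 to 7.34 at 20 hr and 6.80 to 7.07 with 7.08 to 7.18 at 40 hr. The difference, SIRT6 KD minus WT, was -0.18 at 0 hr, -0.30 at 20 hr and -0.22 at 40 hr (limma adjusted p = 0.768, 0.617 and 0.479), and only at 40 hr were all SIRT6 KD arrays below all WT arrays. The study followed SIRT6 in its knockdown 3T3-L1 cells by western blot, and its mRNA by real-time PCR. How far the protein fell in the cells of these arrays was not tested here. Arrays within a group correlated at 0.9905 or more, but 5 of the 18 arrays correlated better with the other genotype of their time. They were 1 WT array at 0 hr, all 3 SIRT6 KD arrays at 20 hr and 1 SIRT6 KD array at 40 hr. All 8 measured fibroblast and preadipocyte markers lay above the receptor level, against 0 of 6 endothelial, 1 of 5 epithelial, 2 of 6 macrophage, 3 of 6 osteoblast and chondrocyte and 4 of 6 skeletal muscle markers. Signals of the markers of a type were added on the linear scale before taking log2, so the brightest probes weigh most. The log2 of the summed signal of the fibroblast and preadipocyte markers was 13.90 to 13.95 (SIRT6 KD) and 13.95 to 14.01 (WT) at 40 hr, against 14.16 to 14.28 and 14.18 to 14.25 at 0 hr. That of 8 adipocyte markers, 7 of them above the receptor level, was 13.47 to 13.49 (SIRT6 KD) and 13.48 to 13.60 (WT) at 40 hr, against 12.73 to 12.77 and 12.60 to 12.80 at 0 hr. At 20 hr the first sum was 13.85 to 13.91 (SIRT6 KD) and 13.84 to 13.90 (WT), and the second 12.31 to 12.45 and 12.55 to 12.58. Of the 8 fibroblast and preadipocyte markers, 6 were lower and 2 higher at 40 hr in each genotype. Of these, 2 were called lower and Lum alone was called higher. Lum changed by 1.97 in SIRT6 KD cells against 1.99 in WT cells, and Pdgfra by 0.35 and 0.49 (not called). The sum of the macrophage markers was 8.94 to 9.09 (SIRT6 KD) and 9.03 to 9.04 (WT) at 40 hr, with 9.79 to 9.88 and 9.76 to 9.95 at 0 hr. Lyz2 was the 1 macrophage marker of 6 that was called, with a change at 40 hr of -2.70 in SIRT6 KD cells against -2.56 in WT cells to a mean under the receptor level, while the median change of the 6 was -0.03 and -0.08. These sums moved with time, and their part in the changes of the members was not tested. In RNA of whole cultures, fewer cells of a type and less RNA per cell cannot be told apart.

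After induction the thrombospondins and tenascin C fell and no member rose. A member was called changed over time at a Benjamini-Hochberg adjusted p under 0.05 over all rows and a fold above 1.5. At 20 hr, 3 of 8 members were called lower in each genotype (Thbs1, Thbs2 and Tnc), where 4.48% of all rows were called lower in SIRT6 KD cells and 4.08% of them in WT cells. At 40 hr Thbs3 joined them, which made 4 of 8 in each genotype, where 4.8% of all rows were called lower in SIRT6 KD cells and 3.96% of them in WT cells. Without the arrays at 0 hr and 40 hr that correlated better with the other genotype, the same numbers were called (the 3 SIRT6 KD arrays at 20 hr are the whole group and were kept). No member was called higher at either time, where 4% (20 hr) and 2.55% (40 hr) of rows were called higher in SIRT6 KD cells and 4.87% and 3.77% in WT cells. The median change of the 8 members at 40 hr was -0.60 in SIRT6 KD cells against -0.57 in WT cells, beside a median over all rows of 0.04 and 0.0033. The order by size of change at 40 hr in WT cells was Thbs1, Thbs2, Tnc, Thbs3, Postn, Sparc, Fn1 and Eln.

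**Figure D1:**
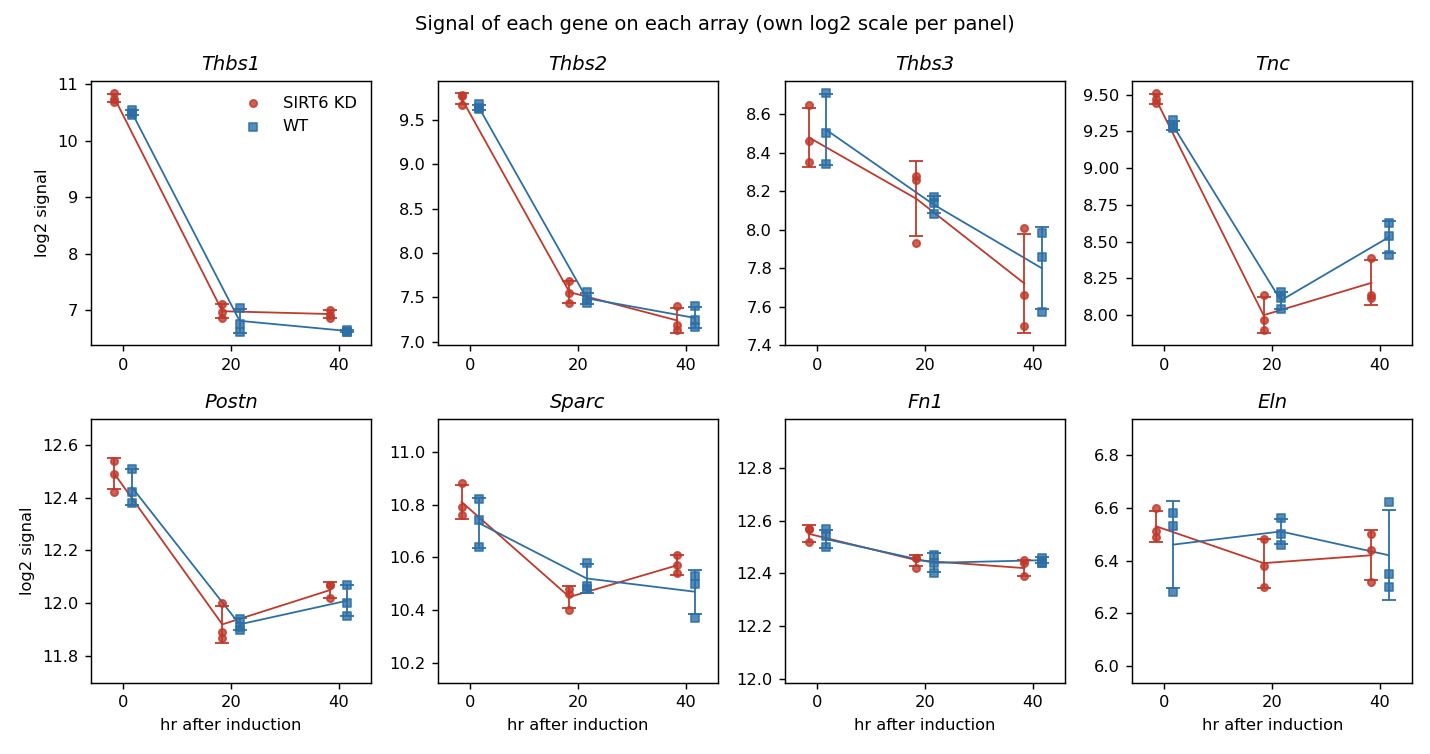
Log2 signal of each member (vertical axis, its own scale in each panel) on each array at 0, 20 and 40 hr after induction, with SIRT6 KD arrays as red circles left of WT arrays as blue squares, lines through the means and bars of 1 SD (n = 3). Thbs1 and Thbs2 drop at 20 hr and stay low, Tnc drops and in WT cells reads higher at 40 hr than at 20 hr, and Fn1 stays between 12.39 and 12.57 on all arrays.

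Thbs1, a trimeric glycoprotein that binds CD36 and CD47 and activates latent TGF-beta, fell furthest. At 0 hr it read 10.69, 10.73 and 10.84 on the SIRT6 KD arrays and 10.45, 10.54 and 10.49 on the WT arrays. At 20 hr it read 6.86, 6.96 and 7.10 in SIRT6 KD cells and 6.76, 6.61 and 7.04 in WT cells. At 40 hr it read 7.01, 6.86 and 6.91 in SIRT6 KD cells and 6.61, 6.62 and 6.65 in WT cells. All arrays taken after induction lay below all arrays taken before it, with no overlap in either genotype, and the WT arrays at 40 hr stood just above the receptor level. Against 0 hr the fall at 20 hr was 13.7-fold in SIRT6 KD cells (log2 -3.78, SE 0.0946, limma adjusted p = 1.4e-15) and 12.9-fold in WT cells (log2 -3.69, adjusted p = 1.35e-15). At 40 hr it was 14.2-fold in SIRT6 KD cells against 14.6-fold in WT cells, with adjusted p of 9.82e-16 and 1.16e-15 by limma. Between 20 hr and 40 hr the level moved by -0.05 in SIRT6 KD cells against -0.18 in WT cells, and neither passed the test (limma adjusted p = 0.831 and 0.355). Without SIRT6 KD replicate 3 of 20 hr, the first of these was 0.02.

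Thbs2, the closest relative of Thbs1 and an inhibitor of angiogenesis that also limits matrix metalloproteinase activity, also fell sharply at 20 hr. It read 9.77, 9.78 and 9.67 in SIRT6 KD cells and 9.63, 9.62 and 9.68 in WT cells at 0 hr. At 20 hr the SIRT6 KD arrays read 7.44, 7.68 and 7.55 and the WT arrays 7.44, 7.56 and 7.47. At 40 hr they read 7.40, 7.13 and 7.19 in SIRT6 KD cells and 7.17, 7.40 and 7.25 in WT cells. The arrays before and after induction were again fully apart, and at 40 hr the genotypes overlapped. The fall was 4.54-fold at 20 hr and 5.66-fold at 40 hr in SIRT6 KD cells, and 4.46-fold and 5.17-fold in WT cells (SE 0.087 on the log2 scale, all limma adjusted p at or below 1.09e-12). From 20 hr to 40 hr the level moved further by -0.32 in SIRT6 KD cells (limma adjusted p = 0.0226, below the fold needed for a call) and by -0.21 in WT cells (adjusted p = 0.169).

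Thbs3 belongs to the thrombospondins that form pentamers, and it was called at 40 hr but not at 20 hr. At 0 hr it read 8.46, 8.65 and 8.35 in SIRT6 KD cells and 8.34, 8.71 and 8.50 in WT cells. At 20 hr it read 7.93, 8.28 and 8.26 in SIRT6 KD cells and 8.17, 8.14 and 8.08 in WT cells. At 40 hr it read 8.01, 7.50 and 7.66 in SIRT6 KD cells and 7.98, 7.86 and 7.57 in WT cells. Its arrays were the most scattered of the members, with an SD of up to 0.258 in a group of 3. At 20 hr the change was -0.33 in SIRT6 KD cells (SE 0.137, limma adjusted p = 0.0924) and -0.39 in WT cells (adjusted p = 0.0435), neither of them past 1.5-fold. At 40 hr it was lower by 1.69-fold in SIRT6 KD cells against 1.64-fold in WT cells (limma adjusted p = 0.000318 and 0.000543).

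Tnc encodes tenascin C, a large hexameric glycoprotein of developing and healing tissue that loosens the hold of cells on fibronectin. At 0 hr it read 9.44, 9.51 and 9.47 in SIRT6 KD cells and 9.27, 9.28 and 9.33 in WT cells. At 20 hr it read 7.90, 8.14 and 7.97 in SIRT6 KD cells and 8.04, 8.12 and 8.16 in WT cells. At 40 hr it read 8.14, 8.12 and 8.39 in SIRT6 KD cells and 8.54, 8.63 and 8.41 in WT cells. All arrays after induction were below those before it, and the 40 hr arrays of WT cells lay above all WT arrays of 20 hr. Against 0 hr the fall in SIRT6 KD cells was 2.78-fold at 20 hr and 2.39-fold at 40 hr (limma adjusted p = 2.04e-10 and 1.65e-09). In WT cells it was 2.28-fold at 20 hr and 1.7-fold at 40 hr (limma adjusted p = 3.55e-09 and 1.46e-06). From 20 hr to 40 hr Tnc moved by 0.22 in SIRT6 KD cells (SE 0.0863, limma adjusted p = 0.136) and by 0.42 in WT cells (adjusted p = 0.00244). The step in WT cells, 1.34-fold, passed the adjusted p but not the fold, and no member was called between 20 hr and 40 hr. By the adjusted p without the fold, 2 members passed in SIRT6 KD cells (Thbs2 and Thbs3, both lower) and Tnc alone in WT cells, where 10.3% and 9% of all rows passed. Across all rows 0.944% were called higher and 2.46% lower over that interval in SIRT6 KD cells, and 0.969% and 2.19% in WT cells. At an unadjusted p under 0.05, 3 of 8 members passed over that interval in each genotype, where 21.7% of all rows passed in SIRT6 KD cells and 18.1% of them in WT cells.

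**Figure D2:**
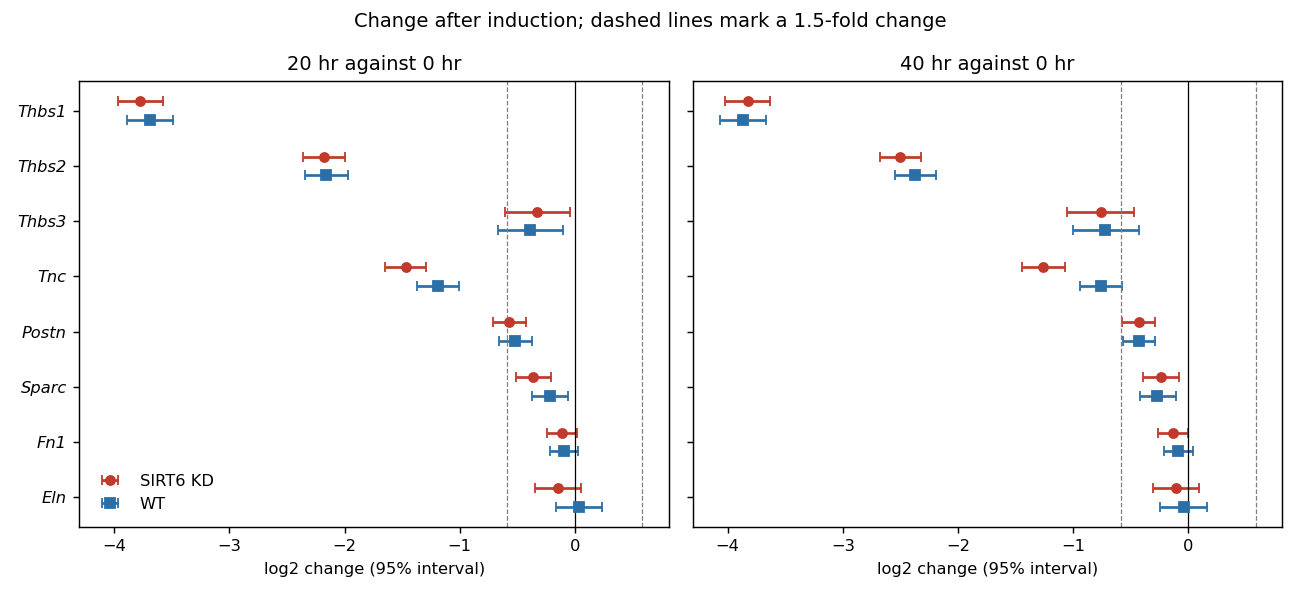
Log2 change of each member (horizontal axis, with 95% intervals) at 20 hr and at 40 hr against 0 hr, with SIRT6 KD as red circles above WT as blue squares and dashed lines at a fold of 1.5. At 40 hr the changes run from -3.82 (SIRT6 KD) and -3.87 (WT) for Thbs1 to -0.11 and -0.04 for Eln.

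Promoter windows from RefSeq (GRCm38.p6), each 250 bases before to 50 bases after a start, were at hand for 5 of the 8 measured members, with 7 windows in all. The genes were Thbs2, Thbs3, Tnc, Postn and Sparc. Thbs1, Fn1 and Eln had no entry. The windows were searched on both strands for the letters of 6 motifs. The Smad-binding letters CAGACA were in 4 of 7 windows, those of Thbs2, Tnc and Sparc, against 21% of 32851 windows of all genes. The windows of Thbs2, Tnc (the more downstream of its starts) and Sparc are shown because all 3 genes have a pair of such matches, with the matches in capitals. A match on the opposite strand reads TGTCTG. A GC box (GGGCGG), also in capitals in Tnc, was in 3 of 7 windows, of Thbs3 and Tnc, against 35.7%. The glucocorticoid receptor letters AGAACA, also in capitals, were in the Sparc window alone of the 7, against 19%. The AP-1 letters TGANTCA (7.81% of all windows), the TEAD letters GGAATG (14.7%) and the cAMP response element TGACGTCA (1.79%) were in 0 of 7. These are matches of letters, not measured binding sites, and no match overlapped another. The windows of Tnc overlap each other and share the same TGTCTG match and the same GC box, so these sites are counted in both windows. By gene, the Smad-binding letters were in 3 of 5 genes and the GC box in 2 of 5.
Thbs2 promoter, chr17:14694213-14694512, minus strand: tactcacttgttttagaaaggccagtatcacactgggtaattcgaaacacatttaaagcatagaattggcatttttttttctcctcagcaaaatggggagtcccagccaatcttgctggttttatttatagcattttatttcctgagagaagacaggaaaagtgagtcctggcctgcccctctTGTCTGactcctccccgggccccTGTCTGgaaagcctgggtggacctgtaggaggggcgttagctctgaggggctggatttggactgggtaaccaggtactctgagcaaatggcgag
Tnc promoter, chr4:64046887-64047186, minus strand: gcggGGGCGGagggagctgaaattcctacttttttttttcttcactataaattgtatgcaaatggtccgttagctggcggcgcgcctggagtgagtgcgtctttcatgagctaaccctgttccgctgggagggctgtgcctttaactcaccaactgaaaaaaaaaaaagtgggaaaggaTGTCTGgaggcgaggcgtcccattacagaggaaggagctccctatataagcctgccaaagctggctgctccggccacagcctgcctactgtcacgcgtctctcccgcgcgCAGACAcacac
Sparc promoter, chr11:55420031-55420330, minus strand: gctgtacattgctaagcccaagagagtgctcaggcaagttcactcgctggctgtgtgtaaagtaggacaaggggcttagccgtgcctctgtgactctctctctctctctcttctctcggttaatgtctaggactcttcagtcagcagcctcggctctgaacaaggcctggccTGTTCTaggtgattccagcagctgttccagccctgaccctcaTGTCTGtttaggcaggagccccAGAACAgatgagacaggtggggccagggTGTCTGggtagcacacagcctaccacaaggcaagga

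In the Thbs2 window the pair of matches begins 67 and 44 bases before the start, in the Tnc window 1 match begins 71 bases before it and 1 lies 40 bases into the transcript, and in the Sparc window 1 begins 36 bases before it and 1 lies 15 bases into the transcript. The genes that carry these letters differed in the size of their change at 40 hr in WT cells, from 5.17-fold for Thbs2 to 1.2-fold for Sparc. Postn, with a larger change than Sparc, has none of the 6 motifs in either of its windows. Whether the letters bear on the changes was not tested, and Thbs1, which fell furthest, had no window.

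Postn and Sparc moved by small amounts. Postn encodes periostin, a fasciclin-domain protein that binds integrins and takes part in collagen crosslinking. Its arrays read 12.42, 12.54 and 12.49 in SIRT6 KD cells and 12.38, 12.42 and 12.51 in WT cells at 0 hr. At 20 hr the mean was 11.92 ± 0.0708 in SIRT6 KD cells, with 11.92 ± 0.0223 in WT cells (SD, n = 3 each). At 40 hr the arrays spanned 12.02 to 12.07 in SIRT6 KD cells, with 11.95 to 12.07 in WT cells, and in both genotypes all arrays after induction lay below those before it. The change at 20 hr was -0.57 in SIRT6 KD cells against -0.52 in WT cells (SE 0.0689, limma adjusted p = 3.41e-06 and 9.27e-06), and at 40 hr -0.43 in each genotype (adjusted p = 8.97e-05 and 9.13e-05). These passed the adjusted p but stayed under 1.5-fold.

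Sparc encodes a collagen-binding protein, also called osteonectin, that is known in mice as a brake on fat accumulation. It read 10.76, 10.88 and 10.79 in SIRT6 KD cells and 10.64, 10.74 and 10.82 in WT cells at 0 hr. At 20 hr it read 10.40, 10.46 and 10.48 in SIRT6 KD cells and 10.48, 10.49 and 10.58 in WT cells. At 40 hr it read 10.54, 10.57 and 10.61 in SIRT6 KD cells and 10.53, 10.37 and 10.50 in WT cells. Arrays before and after induction did not overlap within a genotype. The change at 20 hr was -0.36 in SIRT6 KD cells against -0.22 in WT cells (SE 0.0728, limma adjusted p = 0.000821 and 0.033), and at 40 hr -0.24 and -0.27 (adjusted p = 0.023 and 0.0111), all of them under 1.5-fold. By the adjusted p without the fold, 5 of 8 members were lower at 20 hr in SIRT6 KD cells against 6 of 8 in WT cells, where 12.2% and 11.7% of all rows were lower. At 40 hr 6 of 8 were lower in each genotype, where 12.5% of all rows were lower in SIRT6 KD cells and 10.6% of them in WT cells. These counts changed without the arrays at 0 hr and 40 hr that correlated better with the other genotype. Thbs3 and Sparc then did not pass at 20 hr in WT cells (limma adjusted p = 0.0518 and 0.144). Sparc did not pass at 40 hr in SIRT6 KD cells (limma adjusted p = 0.0642) or in WT cells (0.0633).

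The 2 measured fibril-forming members, Fn1 and Eln, were called at neither time, and Fbn1 was not analysed here. Fn1, which cells assemble into fibrils through integrins, had group means between 12.42 and 12.55, with a mean signal above that of 99.9% of rows. It changed at 40 hr by -0.13 in SIRT6 KD cells (95% interval -0.26 to -0.00031, limma adjusted p = 0.146) and by -0.09 in WT cells (-0.21 to 0.04, adjusted p = 0.397). At 20 hr it changed by -0.11 in SIRT6 KD cells against -0.09 in WT cells. None of these passed the test, though within each genotype all Fn1 arrays after induction lay below those before it. The SE of the fit was 0.0615, while the SD within a group was at most 0.0357, so a small fall of Fn1 is not excluded. Eln, the monomer of elastic fibres, had group means between 6.39 and 6.53, under the receptor level in all 6 groups, where a change could hardly be read. Its change at 40 hr was -0.11 in SIRT6 KD cells (-0.31 to 0.09, limma adjusted p = 0.443) and -0.04 in WT cells (-0.25 to 0.16, adjusted p = 0.83).

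SIRT6 KD cells were then compared with WT cells at each time, to ask whether the knockdown altered these genes before or during induction. No member passed the adjusted p under 0.05 by limma at any time, where 0% of all rows passed at 0 hr, 0.0213% at 20 hr and 0.0935% at 40 hr. The fit without moderated variances also called 0 members. At an unadjusted p under 0.05 there were 2 members at 0 hr, 0 at 20 hr and 2 at 40 hr, and they were Thbs1 and Tnc at each of those 2 times, where 6.91%, 6.65% and 11% of all rows passed at 0, 20 and 40 hr. The arrays of the genotypes did not overlap for 2 of 8 members at 0 hr, 1 at 20 hr and 3 at 40 hr, against 12.3%, 11.7% and 15.9% of all rows.

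Thbs1 was higher in mean signal in SIRT6 KD cells at all 3 times. The difference was 0.26 at 0 hr (95% interval 0.06 to 0.45, limma adjusted p = 0.672), 0.17 at 20 hr (-0.03 to 0.37, adjusted p = 0.814) and 0.30 at 40 hr (0.10 to 0.50, adjusted p = 0.232). The highest WT array was below the lowest SIRT6 KD array at 0 hr and 40 hr, while at 20 hr the WT array of 7.04 lay within the SIRT6 KD range. These differences of at most 1.23-fold stand beside falls of 12.9-fold to 14.6-fold over time, and none passed the adjusted test. Without the arrays at 0 hr and 40 hr that correlated better with the other genotype, the difference was 0.25 at 0 hr and 0.26 at 40 hr.

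The Tnc difference had opposite signs before and after induction, and did not pass the adjusted test at any time. SIRT6 KD arrays lay above WT arrays at 0 hr, by a mean of 0.18 (95% interval 0.0014 to 0.36, limma adjusted p = 0.723). They overlapped at 20 hr, where the difference was -0.10 (-0.28 to 0.08). At 40 hr all 3 SIRT6 KD arrays lay below all 3 WT arrays, by a mean of -0.31 (-0.49 to -0.13, adjusted p = 0.165), and without the 2 arrays named above by -0.27. The difference between the genotype effects at 40 hr and 0 hr, -0.49 (SE 0.122, unadjusted p = 0.000754 in the limma fit), had an adjusted p of 0.363. No row of the series passed the adjusted threshold for a difference of the SIRT6 KD effect, 0% in each of the comparisons of 20 hr with 0 hr, 40 hr with 0 hr and 40 hr with 20 hr. At an unadjusted p under 0.05, Tnc was the 1 member of 8 that passed for 20 hr against 0 hr and again for 40 hr against 0 hr, where 5.02% and 9.37% of all rows passed, and 0 members of 8 passed for 40 hr against 20 hr, where 4.44% did.

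For the other members the intervals, which are not adjusted, give the range of differences that the fit allows on these arrays. Sirt6 itself differed little on them, so the intervals do not bound the effect of losing SIRT6. Thbs2 differed by 0.10 (-0.09 to 0.28) at 0 hr, 0.07 (-0.11 to 0.25) at 20 hr and -0.03 (-0.21 to 0.15) at 40 hr. Postn differed by 0.05 at 0 hr, 0.0035 at 20 hr and 0.05 at 40 hr, with no bound farther from 0 than 0.20. Fn1 was the tightest, at 0.02, 0.01 and -0.02 for 0, 20 and 40 hr, with bounds within 0.15 of 0. Sparc differed by 0.08, -0.07 and 0.11 at 0, 20 and 40 hr. Its SIRT6 KD arrays lay below the WT arrays at 20 hr, touching at 10.48 after rounding, and above them at 40 hr. Thbs3 had the widest intervals, with a difference at 40 hr of -0.08 (-0.37 to 0.21). Eln differed by 0.07, -0.12 and 0.0012 at 0, 20 and 40 hr.

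**Figure D3:**
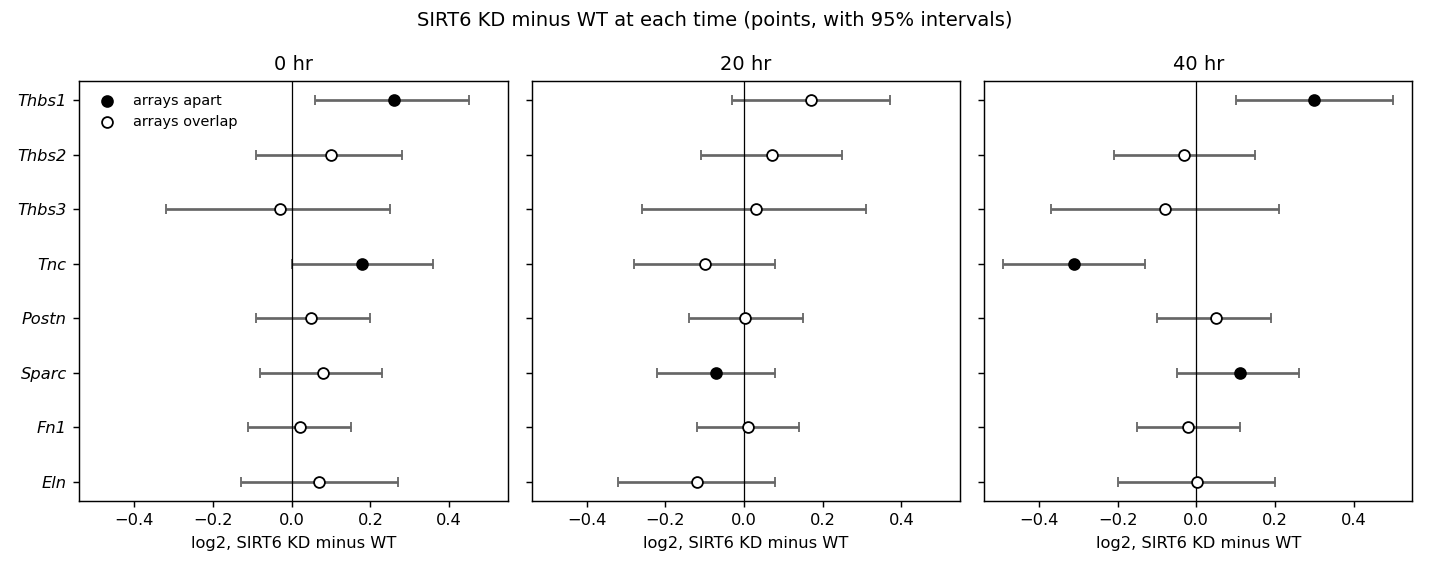
Difference in mean log2 signal, SIRT6 KD minus WT (horizontal axis, with 95% intervals), of each member at 0, 20 and 40 hr, filled where the 3 SIRT6 KD arrays and the 3 WT arrays do not overlap. Thbs1 lies right of 0 at all 3 times, and Tnc lies at 0.18 at 0 hr and at -0.31 at 40 hr.

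The genes that the members work with were counted from lists, as background to the members. These lists, too, were chosen with earlier results of these data known, so the shares of all rows are only a description. Beside the counts below, 2.55% of all rows were called higher and 4.8% lower at 40 hr in SIRT6 KD cells. In WT cells the shares were 3.77% and 3.96%. Of 21 receptors of these glycoproteins, all of them measured, 5 were called higher and 4 lower at 40 hr in SIRT6 KD cells, and 8 higher and 3 lower in WT cells. Itgav and Itgb5, which pair as a receptor for vitronectin and periostin, were lower. Itgav changed by -1.22 in SIRT6 KD cells against -1.01 in WT cells, and Itgb5 by -0.80 and -1.11. Itga3, a laminin-binding integrin chain that also binds thrombospondin 1, changed by -0.40 (not called) in SIRT6 KD cells against -0.60 in WT cells, with a mean signal under the receptor level. Cd36, a fatty acid transporter and thrombospondin receptor that is also an adipocyte marker, was higher by 1.32 in SIRT6 KD cells against 1.89 in WT cells. The membrane proteoglycan Sdc4 was higher by 1.19 and 1.14 in SIRT6 KD and WT cells, and Itgb8, an integrin chain that activates latent TGF-beta, by 0.66 and 0.89, with means at 0 hr (6.20 and 6.00) under the receptor level.

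Among other matricellular genes, 1 of 17 was called higher and 4 lower at 40 hr in SIRT6 KD cells, and the same numbers in WT cells. Ccn1, an immediate early gene product that binds integrins, had a mean of 8.96 (SIRT6 KD) and 8.78 (WT) at 40 hr, against 11.10 and 10.87 at 0 hr. Sparcl1, the nearest relative of Sparc, changed by -1.42 in SIRT6 KD cells against -1.30 in WT cells, and Ccn4 by -0.97 and -0.98. Smoc1, a calcium-binding protein of the Sparc family, was higher by 1.06 and 1.19.

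Of 20 microfibril and elastic fibre genes, 18 were measured, and 0 were called higher and 6 lower at 40 hr in SIRT6 KD cells, with 2 higher and 5 lower in WT cells. Mfap5, a microfibril protein that binds fibrillin, had a mean of 7.19 (SIRT6 KD) and 7.25 (WT) at 40 hr, against 9.25 and 9.37 at 0 hr. Ltbp2, of the latent TGF-beta binding protein family, changed by -1.06 in SIRT6 KD cells against -0.96 in WT cells, and Loxl3, of the lysyl oxidase family of crosslinking enzymes, by -0.77 and -0.86. Fbln5, which helps elastin to assemble, changed by 0.46 (not called) in SIRT6 KD cells against 0.68 in WT cells, and Ltbp1, which holds TGF-beta in the matrix, by 0.45 (not called) and 0.59.

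Of 12 TGF-beta pathway genes, 11 were measured, and 2 were called higher and 3 lower at 40 hr in SIRT6 KD cells, with 2 higher and 2 lower in WT cells. The ligand Tgfb3 changed by -1.52 in SIRT6 KD cells against -1.47 in WT cells, and the inhibitor Smad7 by -0.79 and -0.75, to means (6.45 and 6.46) under the receptor level. The receptor Tgfbr2 was higher by 1.31 in SIRT6 KD cells against 1.57 in WT cells, and the co-receptor Tgfbr3 by 1.17 and 1.24. In all of these lists 0 genes were called between SIRT6 KD and WT cells by limma at 0, 20 or 40 hr, with 3, 7 and 12 of the 67 genes at an unadjusted p under 0.05, where 6.91%, 6.65% and 11% of all rows passed.

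**Figure D4:**
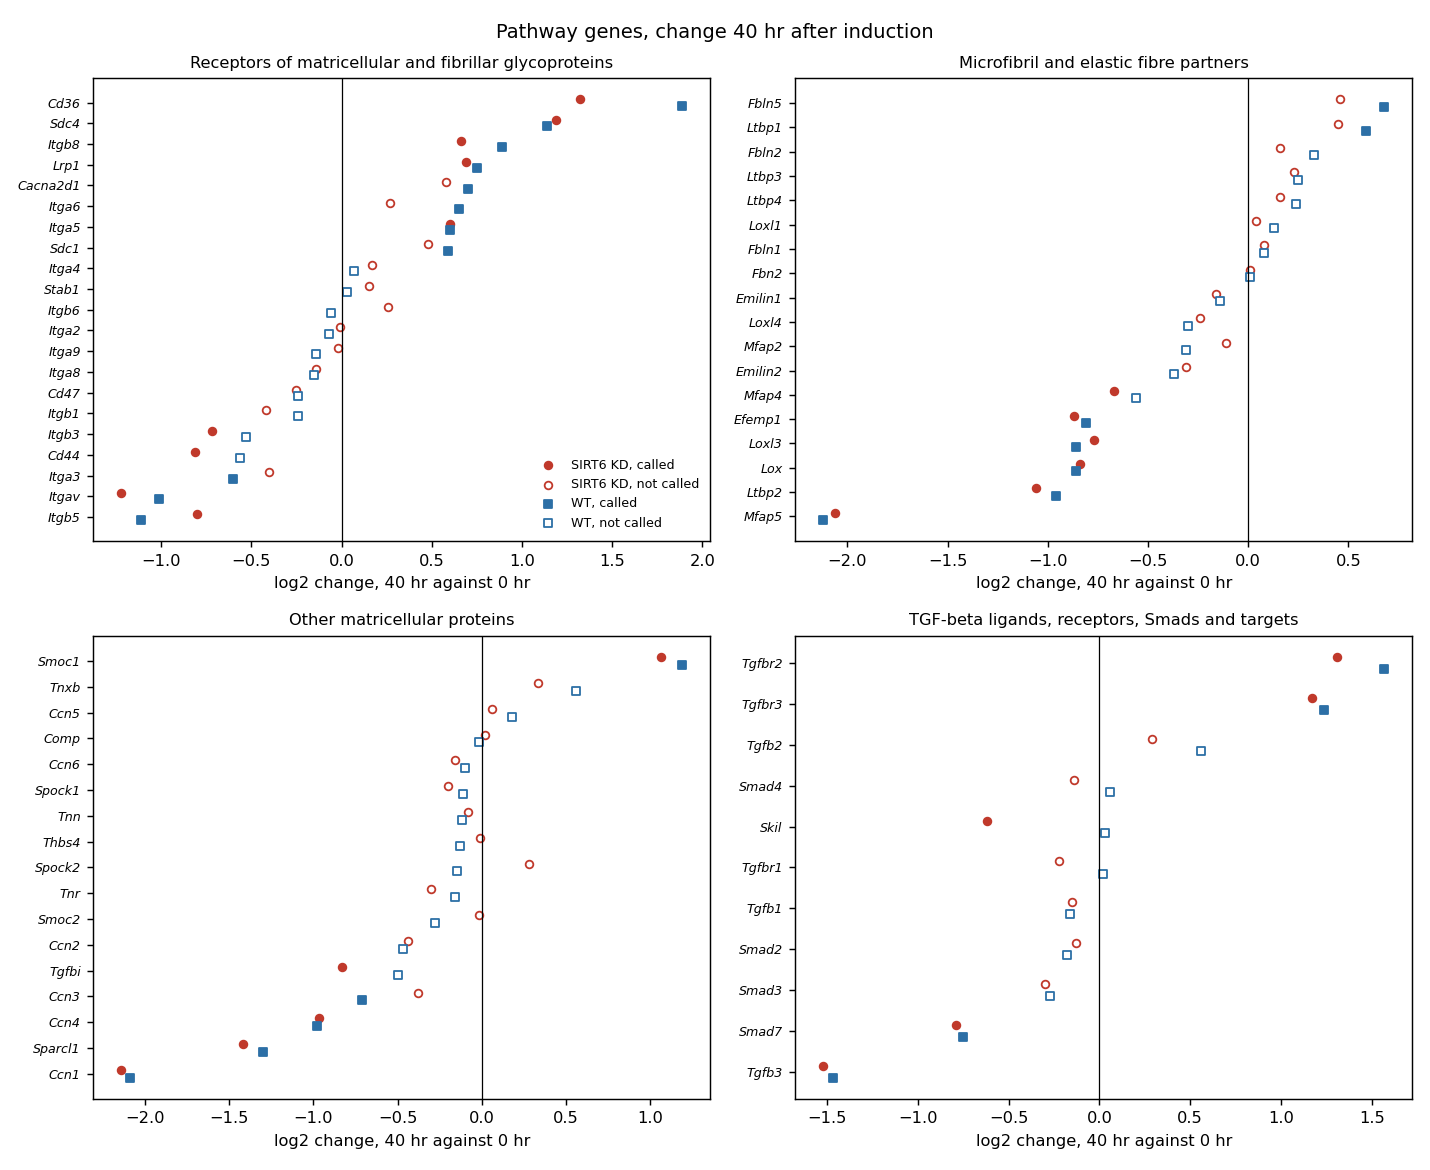
Log2 change at 40 hr against 0 hr (horizontal axis) of every measured gene of the 4 lists, with SIRT6 KD as red circles and WT as blue squares, filled where called. Cd36 (1.32 in SIRT6 KD and 1.89 in WT) and Mfap5 (-2.06 and -2.12) lie near the ends of the range.

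The genes whose course over the 6 group means was most like that of Thbs1, among 3830 genes above the receptor level whose means spanned more than 0.5, were Smarca1 (Pearson r = 0.9997), Ecm2 and Wwc2 (r = 0.9995 each). These correlations are a description over 6 points that share their arrays, and the genes moved by less, with changes at 40 hr in WT cells of -1.77, -1.36 and -0.65.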

How the data were processed

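All 18 arrays were used, 3 in each of 6 groups taken from the sample titles. According to the study's methods, Trizol RNA went through the RNeasy mini kit onto Mouse Gene 2.0 ST arrays. The submitters' processing notes name RMA, with no software or version. The log2 values are the authors' own, deposited as 1 value per transcript cluster and array after RMA, which corrects background, brings the arrays to shared quantiles and summarises the probes. A quantile step of this kind hides changes shared by most genes. Array medians were between 6.41 and 6.54. No depth exists for arrays, and their number limits the precision.

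Rows with no symbol (16004) or several (1820) were left out, which left 23521. No row was filtered on signal. In R 4.3.3, a limma 3.58.1 model (lmFit, then eBayes) gave each group a mean, with 12 residual and 6.37 prior degrees of freedom, and p-values were adjusted by Benjamini-Hochberg over all 23521 rows. Intervals of 95% come from that fit and are not adjusted. A call needed an adjusted p under 0.05, and between times also a fold above 1.5. The script was tested on simulated data with known changes.

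The members, gene lists, markers and motifs were chosen with earlier results of these data known. Named genes are all members, up to 3 genes called higher and 3 called lower per list with the largest change at 40 hr in WT cells, and the 3 most like Thbs1. Promoters and gene positions are RefSeq, GRCm38.p6. Replicate numbers were not used to pair the arrays (below). Alternatives were other variance models, a replicate block, filters, centring, cyclic loess, array weights, other thresholds and leaving out arrays.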

Additional observations from a re-analysis of the deposited data

Results flagged for a closer look

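The 2 members here were flagged because their SIRT6 KD and WT arrays were apart in opposite directions at 2 times. How many of all rows do so was not counted, and the differences given come from the same arrays that led to the flag. The SIRT6 KD and WT arrays of Tnc were fully apart, above WT at 0 hr and below WT at 40 hr. The difference of the SIRT6 KD effect, 40 hr minus 0 hr, was -0.49 on the log2 scale (SE 0.122), with an unadjusted p of 0.000754 and an adjusted p of 0.363 in the limma fit across all rows. Without the array at 0 hr and the array at 40 hr that correlated better with the other genotype, it was -0.47 (limma adjusted p = 0.229).

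The arrays of Sparc were likewise apart in opposite directions, below WT at 20 hr and above WT at 40 hr. The difference of the SIRT6 KD effect, 40 hr minus 20 hr, was 0.17 (SE 0.103, limma unadjusted p = 0.11 and adjusted p = 0.998), and at 20 hr the nearest SIRT6 KD and WT arrays both read 10.48.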

How the results depend on the processing

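The changes and differences reported for the members were recomputed under each alternative. Of 1401 such values, 1352 kept their direction and their side of the threshold, 0 lost a call, 14 gained one and 35 changed sign. Of 507 further values that are not reported above (other steps from 20 hr to 40 hr and other differences of the SIRT6 KD effect), 473 kept both and 34 changed sign, with no such value farther from 0 than 0.08. Of 240 recomputed counts of called members, 236 stayed within 1.5 times. The other 4 came from dropping the fold of 1.5, an alternative chosen after seeing the data, which gave 5 members lower at 20 hr in SIRT6 KD cells against 6 in WT cells (3 in each with the fold), and 2 (Thbs2 and Thbs3) between 20 hr and 40 hr in SIRT6 KD cells and 1 (Tnc) in WT cells (0 in each with the fold). With an adjusted p alone the members lower at 40 hr were 6 in each genotype. The shares of all rows under that rule stand beside these counts in the results above. Leaving out 1 array at a time kept 4 members lower at 40 hr in each genotype, 3 at 20 hr in WT cells and 3 to 4 at 20 hr in SIRT6 KD cells, where Postn was added without SIRT6 KD replicate 1 of 0 hr or of 20 hr (its change ranged from -0.61 to -0.54), and 0 in all other comparisons.

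Among the reported values, signs turned as follows. Under median centring Postn at 20 hr was -0.0087, Fn1 at 20 hr -0.0022, Eln at 40 hr -0.02 and the difference of the Sparc effect, 40 hr minus 0 hr, -0.0084. Under cyclic loess Fn1 was -0.0092 at 0 hr and 0.03 at 40 hr, Thbs2 0.01 at 40 hr and Eln -0.02 at 40 hr. With array weights Postn at 20 hr was -0.0058. Without WT replicate 3 of 0 hr and SIRT6 KD replicate 1 of 40 hr, a pair left out after seeing the data, Eln was -0.0096 at 40 hr and its change at 40 hr in WT cells 0.01. Leaving out 1 array at a time, the difference at 0 hr ranged from -0.12 to 0.06 for Thbs3 and -0.02 to 0.13 for Eln. At 20 hr it ranged from -0.03 to 0.14 for Thbs3, -0.04 to 0.03 for Postn and -0.0091 to 0.03 for Fn1, and at 40 hr from -0.11 to 0.03 for Thbs2, -0.22 to 0.03 for Thbs3 and -0.06 to 0.10 for Eln. The change of Eln in WT cells ranged from -0.05 to 0.10 at 20 hr and -0.14 to 0.02 at 40 hr, the difference of the Thbs1 effect, 20 hr minus 0 hr, from -0.18 to 0.03, that of Sparc, 40 hr minus 0 hr, from -0.02 to 0.08, and the step of Thbs1 from 20 hr to 40 hr in SIRT6 KD cells from -0.11 to 0.02. The causes were not tested.

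With the replicate number as a block, no call changed, the fall of Thbs1 at 40 hr being -3.82 in SIRT6 KD cells against -3.87 in WT cells as without it. Over 27 pairs of same-numbered arrays the correlation of their deviations was between -0.211 and 0.179, 4 pairs were above 0.1, and in 0 of 9 comparisons were all pairs above it. The pairs of SIRT6 KD with WT arrays were all positive at 0 hr and at 20 hr. Those of 40 hr with 20 hr in WT cells were all negative. The numbers were therefore not used to pair the arrays, but with 3 arrays in a group weak pairing cannot be told from none. No member had another row to put in its place, and Eln has no value under the filter at the receptor level. Median centring moved the median of all rows at 20 hr to 0.08 in SIRT6 KD cells against 0.09 in WT cells. Signals near or under the receptor level (such as Eln, Thbs1 after induction, Smad7 at 40 hr and Itgb8 at 0 hr) limit how far a change can be measured.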
